A study of Mus musculus with 10 samples.

Results

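Il1rn knockout mice and wild-type mice were compared at 1 month of age through the transcripts of their splenic CD4+ cells. The comparison holds 5 of the 10 arrays of the series, 2 from knockout and 3 from wild-type mice, chosen by genotype and age as the sample titles give them. According to the design text separate mice were used, 2 knockout and 3 wild-type at each age, and total RNA was extracted with Trizol and read on an Affymetrix array for each. The other 5 arrays, from mice of the same genotypes at 4 months, entered the statistical model and are otherwise named only where a gene's difference at that age is set beside the one at 1 month. Strain, sex, litter, signs of arthritis, the way the allele was made and the purity of the CD4+ cells are not stated in the labels; the series concerns arthritis in mice. With 5 arrays, the array number sets how precise any value can be.

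Il1rn encodes the interleukin-1 receptor antagonist, a secreted protein that occupies the type 1 IL-1 receptor without starting a signal and so competes with IL-1 alpha and IL-1 beta. The receptor passes its signal through Myd88 and the Irak kinases to the transcription factor NF-kB, which induces, among other genes, its own inhibitors. In CD4+ T cells IL-1 is known as a signal that supports the response to antigen and the Th17 fate, while in bone marrow and spleen IL-1 is known to promote the formation of myeloid cells.

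The arrays read the genes that define the labelled cells. Cd4 read 1547 and 2967 intensity units in knockout arrays 1 and 2, and wild-type arrays 1, 2 and 3 gave 2491, 4001 and 2134. The T cell receptor subunit gene Cd3e read 2447 and 5822 in the knockout and 4410.1, 8262 and 3658 in wild type. On these probe sets knockout array 1 was the lowest for both genes and the groups overlapped. A dimmer probe set of Cd4 read 626 and 1119 against 1506, 2839 and 552, also with overlap and lowest in wild-type array 3. Transcripts of other cells were present as well, some above Cd4 in every array. The myeloperoxidase gene Mpo read 3946 to 15526, the IgM heavy chain gene Ighm 30813 to 53479 and the antibody joining chain gene Jchain 20095 to 37242. Summed over 11 erythroid genes, intensity was 66220 to 87720, against 39640 to 69240 over 13 genes of CD4 T cell identity. The share of each cell type was not tested. S100a8, which encodes a calcium-binding protein of neutrophils, read 19549.6 and 32102 against 17484, 1361 and 2966, so that wild-type array 1 lay close to knockout array 1 and apart from the other wild-type arrays. Col1a1, a collagen gene of stroma, did not exceed 49.4, and Cd8a, the marker of the other main T cell class, read 90.6 and 293 and 233, 98.0 and 103 on its brightest probe set. Array medians were 65.2 to 84.6, lowest in knockout array 1, the ratio of 3' to 5' signal of beta-actin was 1.13 to 1.40, and arrays correlated across genes at 0.946 to 0.972, where the highest value joined knockout array 1 with wild-type array 1. In such samples of many cells, fewer cells of a type and less RNA per cell cannot be told apart.

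Il1rn itself could not be used to check the genotype. Its 3 probe sets lay below the filter on dim signals, and the position of their probes with respect to the deletion is not stated. The first read 39.4 and 24.9 in the knockout, against 61.4, 4.05 and 16.3. The second read 55.0 and 73.4 against 65.4, 112 and 81.8. The third read 24.3 and 33.2 against 46.3, 38.4 and 53.4. Only on this last set were both knockout arrays below every wild-type array, at levels under the median of each array.

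Few single genes separated the genotypes beyond the spread of the arrays. Of 11759 genes tested, 9 passed limma's test at an adjusted p of 0.05, which is 0.0765% of the genes; 3 of them rose in the knockout and 6 fell. Without adjustment, p was under 0.05 for 410 genes that were higher (3.49%) and for 598 that were lower (5.09%), 1008 in all where 588 would be expected if no gene differed. Both knockout arrays lay above all wild-type arrays for 10.7% of the genes and below them for 10%. The median log2 difference, knockout minus wild type, was -0.01 over all genes, and 48.3% of the genes were positive. All differences below are on the scale of log2(intensity + 16), which understates changes of dim genes, and are written with the standard error of limma after the sign ±.

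The 3 genes that rose were Arl2bp, Ms4a3 and Plac8. Arl2bp, whose protein binds the GTP-bound form of the GTPase ARL2, read 3079.7 and 3979.5 against 317, 319 and 492. The knockout arrays were several times above every wild-type array, a difference of 3.19 ± 0.23 or 9.16-fold (adjusted p = 9.04e-05). A second probe set of the gene read 1875 and 2201 against 237, 210.2 and 205, a difference of 3.13. Ms4a3 encodes a membrane protein of granulocyte and monocyte precursors. It read 2136 and 1845 in the knockout and 383, 401 and 574 in wild type, with no overlap, and rose by 2.12 ± 0.31 (adjusted p = 0.0292). Plac8, a small cysteine-rich protein found in myeloid and lymphoid cells, read 8538 and 9247 against 4595, 3518 and 4244. Its arrays were close within each genotype and the rise was 1.11 ± 0.17, or 2.17-fold (adjusted p = 0.0292). Wild-type array 1, which was high for S100a8, was the lowest array for Arl2bp and Ms4a3 and the highest wild-type array for Plac8. Its log2 level minus the mean of the other wild-type arrays was -0.31 for both Arl2bp and Ms4a3 and 0.25 for Plac8. Myeloid markers were higher in the same knockout arrays, as given below, and their part in the rise of Ms4a3 and Plac8 was not tested.

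The 6 genes that fell were Oas1b, Oas1a, Ctps2, Dnah8, Ighg3 and Pisd-ps3. Ctps2, one of the CTP synthases of nucleotide metabolism, read 183 and 346 in the knockout and 1384, 1289 and 1497 in wild type. The wild-type arrays were nearly alike and both knockout arrays far below them (-2.39 ± 0.31, adjusted p = 0.0186). Its other probe sets were dim, at 118 or less, and differed by 0.07 and -0.83. Pisd-ps3, a pseudogene of phosphatidylserine decarboxylase, read 552 and 856 against 1705, 1855 and 2403. The groups did not overlap (-1.49 ± 0.21, adjusted p = 0.0269), and a brighter set of the same pseudogene, whose probes can bind several transcripts, read 671 and 1020.1 against 3648, 3675 and 2900.5. Ighg3, the constant region of the IgG3 heavy chain, read 227 and 644 against 2613, 4860.3 and 2958. Every wild-type array was far above both knockout arrays (-3.07 ± 0.42, adjusted p = 0.0222). Its remaining 3 probe sets read 133 or less and differed by 0.96, 0.46 and -0.19, so the fall rested on 1 probe set, and on the mean of the probe sets it was -0.55 without passing (adjusted p = 0.654).

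**Figure D1:**
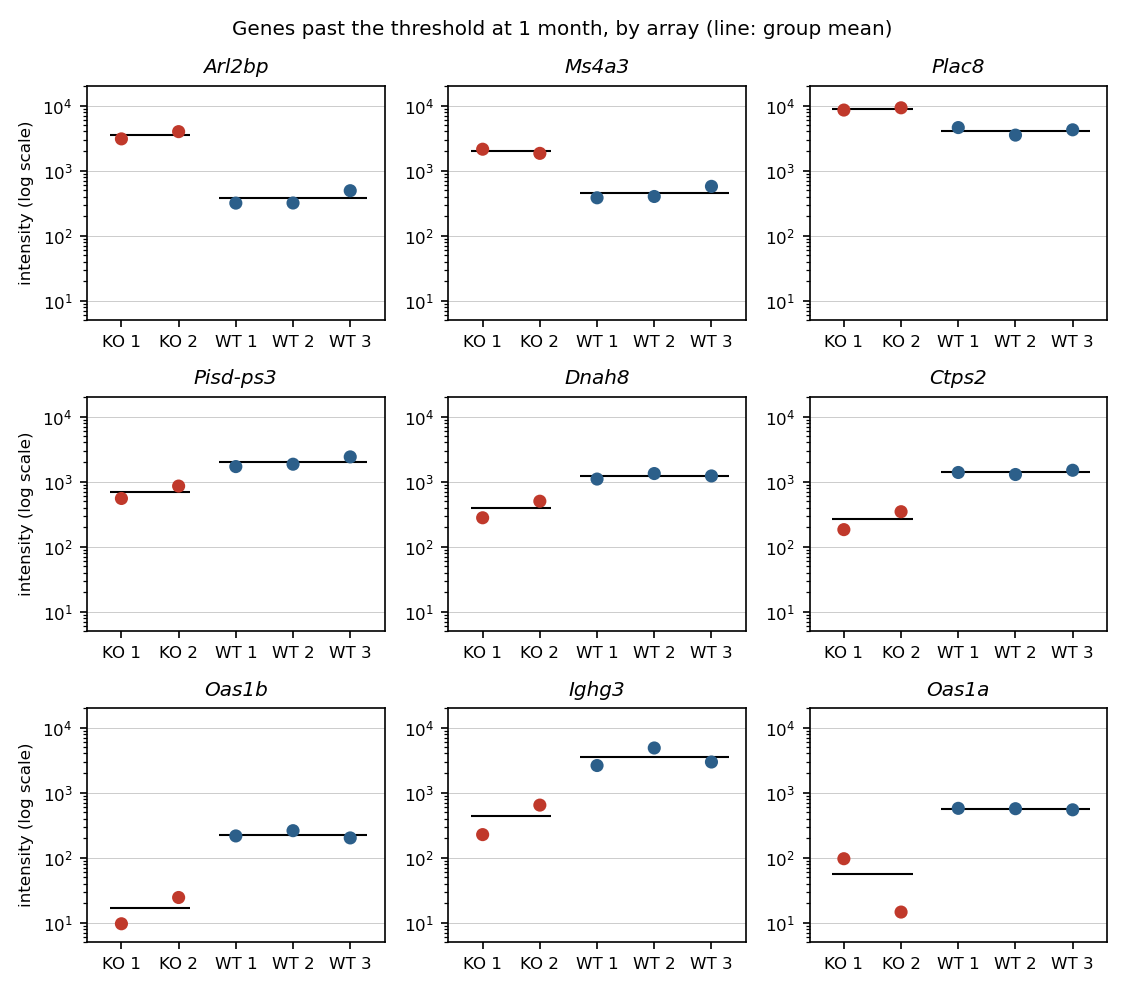
Intensity on a log axis of the 9 genes past the threshold in each array of 1 month; red points are the 2 knockout arrays, blue points the 3 wild-type arrays, and lines the group means. No knockout array overlaps a wild-type array in any panel, and Oas1a shows the widest gap between the knockout arrays, 96.6 and 14.6.

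These calls depended on single arrays. The smallest p of an exact test with 2 and 3 arrays is 0.1. The 9 calls became 1 when either wild-type array 2 or wild-type array 3 was omitted, and 5 without the third wild-type array of 4 months. Arl2bp was called whichever of the 10 arrays was omitted, and none of the 9 genes changed direction. In the separate mice of 4 months, the same model gave Arl2bp a difference of 2.74, Oas1b -3.60 and Ctps2 -2.61, which passed (adjusted p = 0.00052, 0.000592 and 0.00517). The other 6 genes did not pass there. Of these, Oas1a, Pisd-ps3, Dnah8, Ighg3 and Ms4a3 kept the direction of 1 month, at -2.49, -1.11, -1.04, -0.60 and 0.22, and Plac8 had the opposite. Of the 9 genes, Plac8 alone passed limma's test of whether the difference depended on age. Its difference was -0.76 at 4 months and the interaction was 1.87 (adjusted p = 0.047), which did not pass under several alternatives given below. The interactions of Ms4a3 and Ighg3 were larger in size, 1.90 and -2.47, without passing (adjusted p = 0.324 and 0.358).

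Oas1b and Oas1a lie next to each other among the measured genes of chromosome 5. Both encode oligoadenylate synthetases, a family induced by interferon whose product activates RNase L, and Oas1b is known for its part in resistance to flaviviruses. Oas1b read 9.67 and 24.5 in the knockout and 216, 261 and 202 in wild type. Both knockout arrays were at the floor of the arrays and the wild-type arrays above their medians, and the gene fell by 2.90 ± 0.34 (adjusted p = 0.00987). The knockout level was so dim that the size moved with the value added before taking logs, from -1.84 with 64 added to -3.78 with 1 added. Oas1a read 96.6 and 14.6 against 574, 567 and 545, with wild-type arrays within a narrow band, and fell by 3.30 ± 0.49 (adjusted p = 0.0292). Their neighbours of the same family lay lower to a smaller degree and did not pass. Oas1c read 121 and 168 against 205, 243 and 179 (-0.49 ± 0.24, adjusted p = 0.604) and Oas3 read 123 and 209 against 385, 283 and 218 (-0.78 ± 0.43, adjusted p = 0.639), both without overlap, while for Oas2 the groups overlapped at 73.6 and 209 and 101, 209.5 and 142. The genes on the other side, Ptpn11 and Rpl6, differed by 0.14 and 0.13. The Oas1 genes are close paralogs, and whether signal of one reaches probes of another was not tested.

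The promoter windows of Oas1a and Oas3 are printed because they hold the element through which interferon is known to act on this family, while no window was listed for Oas1b. The windows are those of RefSeq on GRCm38.p6, 250 bases before to 50 after the start site, written 5′ to 3′ on the strand of the gene. Capitals mark matches to the interferon-stimulated response element, written as GAAA, any 2 bases and GAAA, searched on both strands with overlapping matches joined. Oas1a lies at chr5:120907476-120907775 on the minus strand and has an overlapping pair of matches; Oas3 lies at chr5:120777610-120777909 on the minus strand and has 1 match, at position -75.
Oas1a: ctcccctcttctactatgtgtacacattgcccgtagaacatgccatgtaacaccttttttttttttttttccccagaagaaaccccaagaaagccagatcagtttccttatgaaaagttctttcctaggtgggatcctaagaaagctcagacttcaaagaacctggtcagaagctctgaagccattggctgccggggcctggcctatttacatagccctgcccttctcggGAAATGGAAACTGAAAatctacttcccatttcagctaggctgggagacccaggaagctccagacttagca
Oas3: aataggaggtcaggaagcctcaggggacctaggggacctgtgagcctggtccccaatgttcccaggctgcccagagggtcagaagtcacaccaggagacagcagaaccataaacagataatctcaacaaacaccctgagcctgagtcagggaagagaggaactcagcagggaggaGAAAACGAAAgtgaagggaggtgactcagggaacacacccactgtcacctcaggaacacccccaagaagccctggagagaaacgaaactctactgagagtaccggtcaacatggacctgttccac
Of the 31 measured interferon response genes with a window, 16 (51.6%) held the motif, against 355 of all 9543 tested genes with a window (3.72%). A match is a description of these letters, not a site or a cause.

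Beyond Oas1b and Oas1a no interferon response gene passed. Of 42 measured genes, Oas1b and Oas1a fell and 40 did not pass. With these 2 genes, 5 of the 42 had an unadjusted p under 0.05 in the lower direction and 1 in the higher, beside 5.09% and 3.49% of all genes. The median was -0.29, and -0.05 without knockout array 1. Iigp1, an immunity-related GTPase, read 1041 and 1277 against 1659, 2034 and 1956 (-0.69 ± 0.22, adjusted p = 0.494). The guanylate-binding protein gene Gbp3 read 582 and 622 against 779, 835 and 988 (-0.51 ± 0.19, adjusted p = 0.523). Neither overlapped between genotypes and neither passed. The motif also stands in 1 of the 2 windows listed for Gbp3, whose levels in the genotypes lay much closer together than those of Oas1a.

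Dnah8, an axonemal dynein heavy chain, read 279 and 501 in the knockout and 1097, 1333 and 1225 in wild type and fell by 1.66 ± 0.22 (adjusted p = 0.0186). Its other probe set was dim, at 62.8 or less, and differed by 0.26. On chromosome 17, 3 of its 10 nearest measured neighbours had an unadjusted p under 0.05, all lower, beside 5.09% of all genes. None passed. The closest, 1700097N02Rik, read 524 and 571 against 1045, 1328 and 1385 (-1.16 ± 0.22, adjusted p = 0.135). Glo1, the glyoxalase that clears methylglyoxal, read 6155 and 4907 against 9162, 8250.1 and 8135 (-0.63 ± 0.15, adjusted p = 0.281). Ccdc167, on the same side, read 93.2 and 108 against 226, 198 and 142 (-0.79 ± 0.25, adjusted p = 0.494). The knockout arrays were below all wild-type arrays for each of them, as they were for 10% of all genes. Around Ctps2 on chromosome X, Plac8 on chromosome 5 and Ighg3 on chromosome 12, 0 of 10 neighbours had such a p. Around Arl2bp on chromosome 8 there were 2, 9330175E14Rik and Nlrc5, both lower. Ms4a3 on chromosome 19 had 2, Gm8369 lower and Ms4a2 higher. Oas1b on chromosome 5 had 2, Oas1a and Rasal1, both lower.

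Neutrophil genes were higher in the knockout, and the stages of granule formation differed in how the single arrays lay. Neutrophils fill their primary granules as promyelocytes, secondary and tertiary granules later, and make many cytosolic proteins and receptors last. The primary granule list had 5 measured genes. Ms4a3 rose and the other 4 did not pass, although all 5 had an unadjusted p under 0.05 and no overlap. Of all genes, 3.49% had such a p in this direction and 10.7% had no overlap. The list median was 1.81. Without knockout array 2, 3 of the 5 had such a p. Mpo, the myeloperoxidase, read 12776 and 15526 against 5086, 5017 and 3946 (1.59 ± 0.51, adjusted p = 0.494). The serine protease Ctsg read 4739.6 and 4459 against 1000.1, 885 and 1382 (2.09 ± 0.47, adjusted p = 0.276). The proteinase Prtn3 read 5064 and 5515 against 1473, 1758 and 1303 (1.81 ± 0.53), and the elastase Elane 4013 and 6074 against 1555, 1868 and 1201 (1.69 ± 0.59). Each wild-type array was below both knockout arrays for these genes. This includes wild-type array 1, whose median over the list was -0.04 from the other wild-type arrays. In a fit of the 5 arrays of 1 month alone Ctsg, Prtn3 and Mpo passed (adjusted p = 0.0196 for each), and so did they, with Elane, without wild-type array 2 of 4 months (adjusted p = 0.0208 to 0.0442).

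Secondary granule genes were also high in 1 of the wild-type arrays. Camp, the cathelicidin, read 3302 and 9826 in the knockout and 3005, 167 and 321 in wild type (3.32 ± 1.10, adjusted p = 0.494). Ltf, lactotransferrin, read 1206 and 4539 against 1540.4, 177 and 171 (2.62 ± 0.97, adjusted p = 0.508). Lcn2, the siderophore-binding lipocalin, read 948 and 4038 against 1250.1, 92.1 and 108 (2.94 ± 1.09, adjusted p = 0.509). Wild-type array 1 lay above knockout array 1 for Ltf and Lcn2 and just below it for Camp, and knockout array 2 was highest for all 3. Of the 6 measured genes, all had an unadjusted p under 0.05, none passed, and only Camp had groups without overlap. Over all genes 3.49% had such a p in this direction and 10.7% had no overlap. The 6 became 0 without knockout array 2, 2 when wild-type array 2 was omitted and 3 when wild-type array 3 was. The list median was 2.99, from 2.01 without knockout array 2 to 4.19 without wild-type array 1, and wild-type array 1 was 3.53 above the other wild-type arrays. Over the primary list knockout array 1 was level with knockout array 2 (-0.12), and over the secondary list it was lower by a median of 1.89 on the log2 scale.

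**Figure D2:**
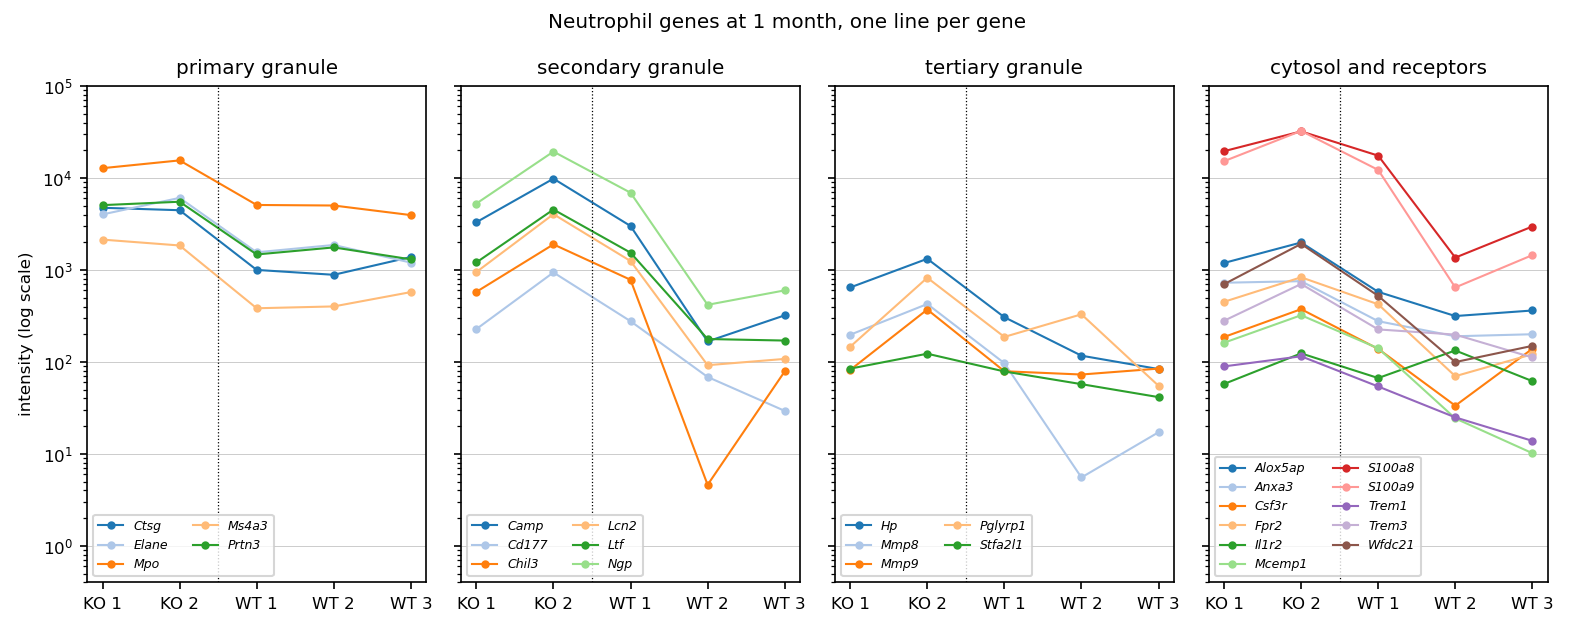
Intensity on a log axis of neutrophil genes at 1 month, 1 line per gene across the 2 knockout (KO) and 3 wild-type (WT) arrays, in panels by the granule or compartment of the product. Primary granule genes are lower in all 3 wild-type arrays than in both knockout arrays. Secondary granule genes are high in wild-type array 1 as in knockout array 1.

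The later neutrophil genes lay between these patterns. Of 5 tertiary granule genes, 2 had an unadjusted p under 0.05, beside 3.49% of all genes in this direction. None passed, and the median was 1.11. The collagenase gene Mmp8 read 197 and 426 against 96.8, 5.54 and 17.2 (2.83 ± 0.67) and haptoglobin, Hp, 645 and 1322 against 306, 117 and 83.6 (2.54 ± 0.59). Both were higher in each knockout array (adjusted p = 0.284 and 0.281). The median was 0.45 without knockout array 2 and 2.30 without knockout array 1. Of 11 genes of cytosol and receptors, 9 had an unadjusted p under 0.05, 10 had groups without overlap and none passed, with a median of 1.86. Beside them stand 3.49% and 10.7% of all genes, and the 9 became 2 without knockout array 2, 4 when wild-type array 2 was omitted and 6 when wild-type array 3 was. Their summed intensity was 38610 and 71730 against 32140, 3094 and 5584. Alox5ap, the activating protein of leukotriene synthesis, read 1190.5 and 1988 against 577, 315 and 362 (1.89 ± 0.31, adjusted p = 0.0566). Anxa3, an annexin of neutrophil granules, read 726 and 755 against 277, 189.9 and 199.8 (1.68 ± 0.29, adjusted p = 0.0832). The calprotectin subunit gene S100a9 read 15218 and 32497 against 12233, 645 and 1449 (3.29 ± 1.30, adjusted p = 0.55). Il1r2, the decoy receptor of IL-1, read 57.5 and 124 against 66.7, 133 and 61.8 and overlapped.

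Genes of monocytes and macrophages were higher as well, and none passed the test. Of 26 measured genes 12 had an unadjusted p under 0.05, all higher, beside 3.49% of all genes, and the median was 0.91. The 12 became 3 without knockout array 2, 8 without wild-type array 3 and 18 without wild-type array 1; the median was 0.59 in the first of these fits and 0.52 in the second. F13a1, the coagulation factor subunit of monocytes, read 2392 and 2294 against 764, 562 and 932 (1.65 ± 0.35, adjusted p = 0.238). The knockout arrays were alike and wild-type array 1 lay among the wild-type arrays. Tyrobp, the signalling adaptor of myeloid receptors, read 1368 and 2591 against 939.6, 393 and 438 (1.76 ± 0.38, adjusted p = 0.238). Csf1r, the receptor of macrophage growth factor, read 2112 and 3428 against 1814, 737 and 782 (1.39 ± 0.38, adjusted p = 0.42), and the oxidase subunit Cybb 1306 and 2291 against 1259, 528 and 712 (1.13 ± 0.32). For these 3 genes, on the probe sets used, wild-type array 1 lay below knockout array 1 and above the other wild-type arrays. Dimmer probe sets of Csf1r read 391 and 627 against 408, 247 and 132, and 318 and 447 against 368, 320 and 190. On those sets the groups overlapped and wild-type array 1 lay above knockout array 1.

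Smaller marker lists of granulocytes and dendritic cells had positive medians and no gene past the test. The share of all genes with an unadjusted p under 0.05 in the higher direction was 3.49%. Dendritic cell genes had 4 of 8 at an unadjusted p under 0.05, or 1 of 7 without knockout array 2, and a median of 0.53. Cst3, cystatin C, read 5146 and 6238 against 3992, 2965 and 3818 (0.67 ± 0.16, adjusted p = 0.316). The transcription factor gene Batf3 read 53.6 and 199 against 15.6, 16.3 and 8.49 (2.06 ± 0.56, adjusted p = 0.396), at the floor in wild type and apart between the knockout arrays. Below the filter, Xcr1 of the same list went the other way, at 5.41 and 24.3 against 42.3, 56.5 and 71.9 (-1.29). Siglech, also below the filter, differed by 0.14. Mast cell and basophil genes had 3 of 9 and a median of 0.58. The protease gene Mcpt8 of basophils read 598 and 559 against 444, 189.6 and 206 (1.11 ± 0.32, adjusted p = 0.443). Eosinophil genes had 2 of 3 and a median of 1.07. Prg2, the major basic protein, read 3531 and 1495 against 1131, 424 and 528 (1.83 ± 0.54, adjusted p = 0.477), highest in knockout array 1. Without that array 0 of the 3 eosinophil genes had such a p. Erythroid genes had 0 of 11 and a median of 0.27, platelet genes 1 of 8 and 0.15, each with 0 past the test; Pf4, platelet factor, read 498 and 583 against 427, 339 and 330.4 (0.55 ± 0.23, adjusted p = 0.562).

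Genes of at least a 2-fold difference with separate arrays and an unadjusted p under 0.05 numbered 85 higher and 113 lower. Of the 85, 32 belonged to the myeloid lists, which hold 73 of the genes tested. In 30 of the 85, wild-type array 1 was at least 2-fold above the mean of the other wild-type arrays, and 19 of these were in myeloid lists; of the other 55, 13 were. Among genes with a name, a p under 0.05 and arrays that did not overlap, the 10 largest differences short of the threshold included Camp, S100a9, Mmp8 and Hp, given above, and the myeloid genes Wfdc21 and Mcemp1, at 2.44 ± 0.72 and 2.16 ± 0.80. Anxa1, the annexin abundant in myeloid cells, read 3489 and 7272 against 2349.7, 596 and 956 (2.17 ± 0.50, adjusted p = 0.281). The lysozyme gene Lyz2 read 2853 and 7123 against 2755, 607 and 647 (2.11 ± 0.70, adjusted p = 0.498), and its near-identical copy Lyz1 read 6830.4 and 13745 against 6284, 1002 and 1303 (2.25 ± 0.83, adjusted p = 0.508), where cross-hybridisation was not tested. For both, wild-type array 1 lay just below knockout array 1. Prom1, a membrane glycoprotein of stem and progenitor cells, read 137 and 222 against 33.0, 10.6 and 49.2 (2.12 ± 0.62, adjusted p = 0.477), with wild-type array 1 as low as the others.

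Among the 113 lower genes, 83 (73.5%) had a knockout mean under 65.2, the lowest median of an array, and 12 had a wild-type mean over 500. Of the 113, 1 belonged to the T cell lists, which hold 106 of the 11759 genes tested. Of the 10 largest falls short of the threshold, ranked in the same way, most were of dim genes, among them Myh14, Eva1c, Glis2, Ccdc187, Tkfc and Zfp92. Cd1d2, a lipid antigen-presenting molecule, read 49.2 and 6.34 against 173, 139 and 144 (-2.13 ± 0.46, adjusted p = 0.239). Has1, a hyaluronan synthase, read 27.9 and 5.18 against 119.9, 86.8 and 109 (-1.98 ± 0.38, adjusted p = 0.141). Sfi1, a centrin-binding protein of the centrosome, was brighter at 63.6 and 113 against 207, 335 and 455 (-1.71 ± 0.32, adjusted p = 0.128). All 3 had groups without overlap, and Cd1d2 and Has1 lay below the array medians in both knockout arrays. In the mice of 4 months Sfi1 passed limma's test, with a difference of -2.28 (adjusted p = 0.019). Erdr1, a gene named for erythroid differentiation, was measured here by a dim probe set at 9.60 and 8.89 against 50.8, 73.9 and 96.9 (-1.80 ± 0.48, adjusted p = 0.396). A bright second set, whose probes can bind several transcripts, read 1431 and 2755 against 5666, 9097 and 5712, lower in both knockout arrays by 1.74.

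No ligand or receptor of the IL-1 family passed, and most were dim. Of 7 measured ligands and antagonists, 0 passed and 1 had an unadjusted p under 0.05, in the lower direction, beside 5.09% of all genes. Il1b, the secreted cytokine, read 90.1 and 348 against 256, 154 and 114, with knockout array 1 lowest and knockout array 2 highest. Il18 read 230.0 and 289 against 316, 159 and 221. The exception was Il1f5, the antagonist of the IL-36 receptor and a close neighbour of Il1rn on chromosome 2, at 63.3 and 35.2 against 133, 143 and 97.9 (-1.13 ± 0.46, adjusted p = 0.56). Its knockout arrays were below all wild-type arrays, and the neighbour between it and Il1rn, Il1f10, overlapped at 148 and 145 and 97.1, 196 and 248. Of 7 receptors, 0 passed and none had an unadjusted p under 0.05. Il1r1, the signalling receptor, was dim at 86.9 and 25.6 against 27.9, 45.9 and 16.4, and its partner Il1rap read 267 and 287 against 286, 251 and 381. The IL-18 receptor gene Il18r1 read 510.3 and 1379 against 629, 861 and 1306. All overlapped between genotypes.

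**Figure D3:**
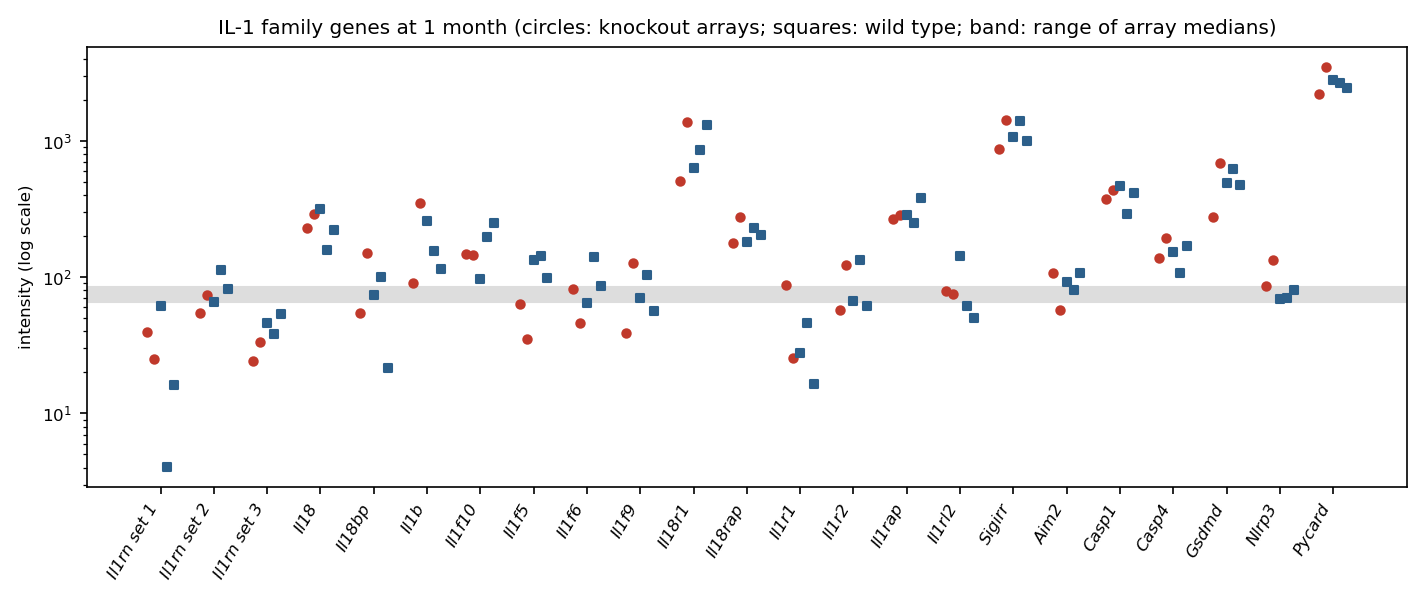
Intensity on a log axis of the 3 Il1rn probe sets and of the measured IL-1 family ligands, receptors and processing genes in each array of 1 month, with knockout arrays as red circles, wild-type arrays as blue squares, and the range of array medians (65.2 to 84.6) as a grey band. Most genes lie near the band and overlap between genotypes, with Il1f5 below it in both knockout arrays.

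The machinery that processes IL-1 and carries its signal had no gene past the test either. The inflammasome adaptor gene Pycard read 2221 and 3485 against 2817, 2672 and 2453, and the IL-1 converting protease gene Casp1 376 and 435 against 465, 289 and 415. Of 20 signalling genes 0 passed and 2 had an unadjusted p under 0.05, both lower, beside 5.09% of all genes in that direction. Myd88, the receptor adaptor, read 902 and 1176 against 1087, 1338 and 1064, Irak1 1098 and 1206 against 1148, 1201 and 1247, and Rela, the main NF-kB subunit, 1517 and 2312 against 1769.9, 2837 and 1608. Peli1, a ubiquitin ligase of the pathway, read 4015 and 3507 against 4639, 4440.2 and 5634 (-0.38 ± 0.17, adjusted p = 0.567), without overlap. The NF-kB subunit gene Nfkb2 read 29.9 and 287 against 228, 410.5 and 213 (-1.29 ± 0.57, adjusted p = 0.567), where knockout array 1 alone was low and the difference was 0.076 without it.

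Measured targets of IL-1 and NF-kB lay lower in the knockout without any gene passing. All 13 measured genes of the 17 listed were negative. Of these, 6 had an unadjusted p under 0.05 and 6 had groups without overlap, against 5.09% and 10% of all genes. The listed genes below the filter went both ways. Ccl2 differed by 0.95 and the probe sets of Ptgs2 by 0.40 and 0.74, while Cxcl2 differed by -0.15 and Il6 by -0.11. The median was -0.54 and remained at -0.45 without knockout array 1, when 4 of the 13 genes were positive and 3 had such a p; it was negative in all 23 alternatives. Traf1, an adaptor of tumour necrosis factor receptors, read 115 and 189 against 264, 278 and 357 (-0.94 ± 0.21, adjusted p = 0.281). Zc3h12a, the ribonuclease Regnase that degrades inflammatory transcripts, read 61.2 and 58.9 against 127, 182 and 109.7 (-1.01 ± 0.27, adjusted p = 0.396). Nfkbiz, an inducible nuclear regulator of NF-kB, read 569.9 and 589 against 793, 1007 and 1144 (-0.73 ± 0.20, adjusted p = 0.425). For Zc3h12a and Nfkbiz the knockout arrays were alike and both below wild type. Socs3, the inhibitor of cytokine signalling, read 181 and 388 against 463, 837 and 395 (-0.97 ± 0.33, adjusted p = 0.502). Tnfaip3, the inhibitor A20 of the pathway, read 389 and 652 against 742, 748 and 726 (-0.54 ± 0.21, adjusted p = 0.552). Nfkbia, the most studied inhibitor, overlapped at 12095 and 17022 against 12965, 11848 and 19358. The list mixes genes of T cells and of myeloid cells, and levels of T cell markers moved with it in knockout array 1, as given next; their part was not tested.

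The promoter window of Tnfaip3 is shown as that of a target whose knockout arrays lay below wild type and that holds a kappa B site. The first of 2 windows listed for the gene is printed, and the other, at chr10:19011914-19012213, had 0 matches. The printed one lies at chr10:19015361-19015660 on the minus strand of GRCm38.p6, from RefSeq, and capitals mark the match to the site, written as GGG, any 2 bases, TT, any base and CC, searched on both strands, at position -12.
Tnfaip3: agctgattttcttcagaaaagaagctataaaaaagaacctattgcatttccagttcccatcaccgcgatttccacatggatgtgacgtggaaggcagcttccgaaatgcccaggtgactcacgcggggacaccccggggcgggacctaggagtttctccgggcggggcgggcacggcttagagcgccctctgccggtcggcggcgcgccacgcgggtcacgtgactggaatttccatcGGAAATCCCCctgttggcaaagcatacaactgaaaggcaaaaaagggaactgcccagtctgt
Of 12 target genes with a window, 4 held this motif (33.3%), against 616 of 9543 tested genes (6.45%). The other 3 were Nfkbia, Cxcl1 and Bcl3, whose arrays overlapped between genotypes.

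T cell lists had negative medians that rested mainly on knockout array 1, although single genes were low in both knockout arrays. The share of all genes with an unadjusted p under 0.05 in the lower direction was 5.09%. Of 13 genes of CD4 T cell identity 0 passed, 2 had an unadjusted p under 0.05 in the lower direction, and the median was -0.34, which became 0.10 without knockout array 1. Summed over the list, intensity in the knockout was 39640 and 67470, against 54490, 69240 and 60860. Cd28, the costimulatory receptor, read 2142 and 2611 against 2915, 3093 and 2954 (-0.33 ± 0.14, adjusted p = 0.566), and Thy1 1830.2 and 4286 against 3511, 6366 and 3278. T cell receptor signalling had 22 of 22 genes negative, 4 with an unadjusted p under 0.05 and 0 past the test, with a median of -0.42 that became -0.05 without knockout array 1. The 4 genes became 0 without knockout array 1 and 18 without knockout array 2. Cblb, a ubiquitin ligase that restrains activation, read 661 and 917 against 1259, 1257 and 1138 (-0.63 ± 0.18, adjusted p = 0.435). The calcineurin-dependent factor gene Nfatc1 read 1139 and 1539 against 1783, 2115 and 1868 (-0.53 ± 0.17, adjusted p = 0.494). Both knockout arrays were below wild type for these genes. The naive T cell list had 14 of 14 genes negative and a median of -0.32, or -0.06 without knockout array 1, with Bach2, a repressor of effector fates, at 777 and 1098 against 1193, 1729 and 1875 (-0.75 ± 0.23, adjusted p = 0.494).

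**Figure D4:**
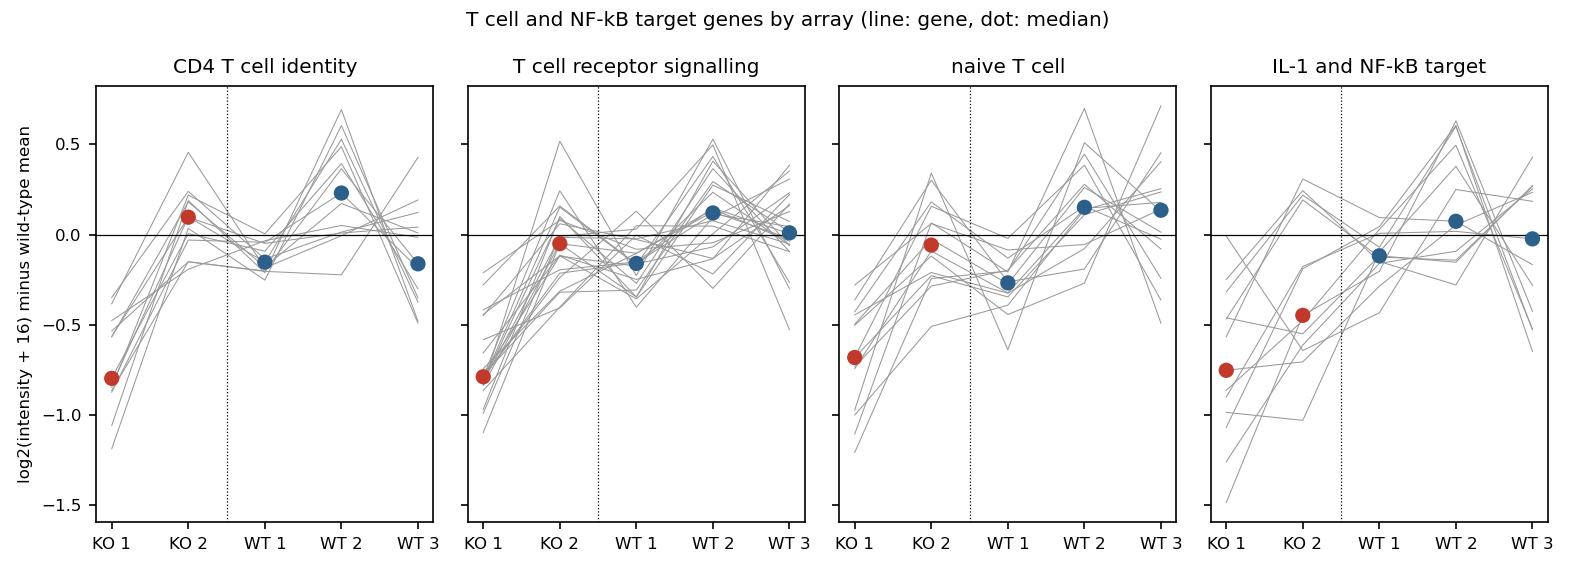
Log2(intensity + 16) of each measured gene of 4 lists minus its wild-type mean in each array of 1 month, where grey lines are genes and dots are list medians, red for knockout (KO) and blue for wild type (WT). Knockout array 1 is lowest in each panel, and knockout array 2 is below the wild-type arrays for the IL-1 and NF-kB targets.

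Genes of T helper subsets and regulatory T cells had the same dependence on knockout array 1, with 0 genes past the test in each list. The Treg list had 5 of 13 genes with an unadjusted p under 0.05, all lower, beside 5.09% of all genes. Its median was -0.47. Without that array the median was -0.18 and 1 gene had such a p in each direction, and without knockout array 2 there were 9 lower. Gpr83, a receptor enriched in regulatory T cells, read 457 and 645 against 858, 1274 and 946 (-0.88 ± 0.26, adjusted p = 0.477). The transcription factor gene Ikzf4 read 256 and 206 against 273, 461 and 479.8 (-0.73 ± 0.25, adjusted p = 0.506). Both had groups without overlap. Medians were -0.35 for Tfh, -0.38 for Th2, -0.31 for Th1 and -0.30 for Th17 genes, and became -0.11, 0.04, 0.29 and -0.06 without knockout array 1. Il17a, the cytokine that names the Th17 cells, was below the filter and read 42.6 and 16.4 in the knockout against 44.5, 145 and 56.1 in wild type. Maf, a factor of Th2 and follicular helper cells, read 1091 and 953 against 1559, 1403 and 1991 (-0.67 ± 0.18, adjusted p = 0.396). Tbx21, which encodes T-bet of Th1 cells, read 132 and 221 against 269.8, 321 and 252 (-0.66 ± 0.27, adjusted p = 0.565), below wild type in both knockout arrays.

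Genes of activated and memory T cells went both ways. Of 20 measured genes 0 passed, and the median was -0.35. An unadjusted p under 0.05 was found for 3 in the higher and 8 in the lower direction. The shares of all genes were 3.49% and 5.09%. Without knockout array 1 the median was -0.07, with 4 higher and 2 lower. Lgals1, galectin 1, read 16131 and 20333 against 13020.3, 9300.1 and 14054 (0.60 ± 0.19, adjusted p = 0.494). The annexin gene Anxa2 read 1170.3 and 2113 against 1208, 839 and 806 (0.74 ± 0.27, adjusted p = 0.506). Both are also made by myeloid cells, whose markers were high in the same arrays; their part was not tested. Il2rb, the shared receptor subunit of IL-2 and IL-15, read 431 and 751 against 945, 1819 and 736 (-0.91 ± 0.33, adjusted p = 0.506), where knockout array 2 overlapped wild-type array 3.

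Mediators of joints and bone were measured for 6 of 15 genes, and 0 passed. Tnfsf11, which encodes the osteoclast factor RANKL, read 167 and 192 against 352, 298 and 388 (-0.89 ± 0.26, adjusted p = 0.479). Both knockout arrays were near the same level and well below each wild-type array. Tnf read 122 and 114 against 159, 155 and 214 (-0.51 ± 0.25, adjusted p = 0.607), also without overlap. Among chemokine receptors, 0 of 13 passed. Cxcr4, the receptor of CXCL12, read 2864 and 2509.8 against 1859, 1787 and 1856 (0.54 ± 0.22, adjusted p = 0.56), higher in both knockout arrays.

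Proliferation genes had small positive differences. All 25 measured genes were positive, 3 had an unadjusted p under 0.05 beside 3.49% of all genes, 0 passed and the median was 0.32. Without knockout array 1, 5 of the 25 were negative and the median was 0.29. The 3 genes became 0 when either wild-type array 2 or wild-type array 3 was omitted, 0 with quantile normalization, and 6 when wild-type array 1 was omitted. Primary granule genes of myeloid precursors were higher in the same knockout arrays, and their part was not tested. Birc5, survivin, read 7229 and 5516 against 5332, 3545 and 4236 (0.55 ± 0.23, adjusted p = 0.565), and the replication helicase subunit Mcm3 2846 and 2934 against 2324, 2024 and 1917 (0.47 ± 0.21, adjusted p = 0.567). In both, wild-type array 1 was the highest of its group. Immediate early genes had 0 of 19 past the test and a median of -0.41, which became -0.00 without knockout array 1. Jund, a subunit of AP-1, read 2588 and 2508 against 4584, 7456 and 3654 (-0.97 ± 0.25, adjusted p = 0.387), and Klf4, a factor also of monocytes, 233 and 261 against 141, 119.8 and 133 (0.84 ± 0.31, adjusted p = 0.512); neither overlapped. Heat shock genes had 0 of 17 past the test and a median of 0.16.

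Markers of B cells, plasma cells and cytotoxic lymphocytes had medians whose sign changed with single arrays. B cell genes had 0 of 19 with an unadjusted p under 0.05 and a median of 0.02, from -0.50 without knockout array 2 to 0.47 without wild-type array 1. Ms4a1, which encodes CD20, read 786 and 1390.4 against 1956, 620.3 and 908, highest in wild-type array 1. Plasma cell genes had 0 of 10 past the test and a median of 0.25, or -0.18 without knockout array 2; Jchain, the joining chain of secreted antibodies, read 25298 and 37242 against 22698, 20095 and 31670.4. The IgM heavy chain gene Ighm read 31321 and 53479 against 30813, 34239 and 37962, and the IgA heavy chain gene Igha 1732 and 2869.7 against 3325, 2942 and 1346. Both overlapped between the genotypes, which the probe set of Ighg3 did not. CD8 T and NK cell genes had 0 of 14 past the test and a median of -0.09, and stroma genes 0 of 5 and -0.21, with 0.46 and 0.10 without knockout array 1.

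**Figure D5:**
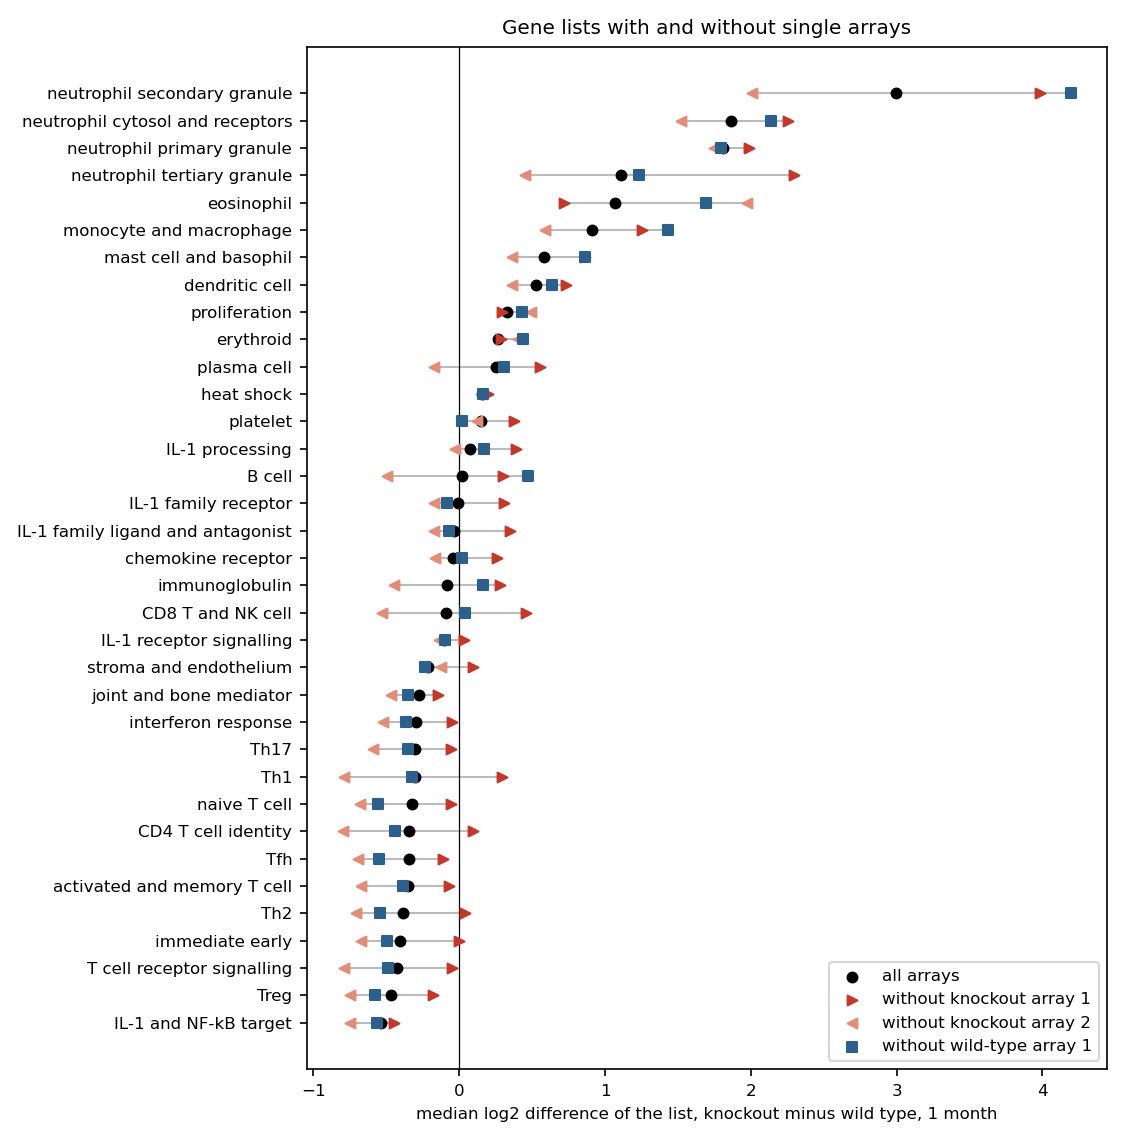
Median log2 difference, knockout minus wild type at 1 month, of each gene list with all arrays (black) and without knockout array 1, knockout array 2 or wild-type array 1, as marked by the symbols. The neutrophil lists lie at 1.11 to 2.99 and the IL-1 and NF-kB targets at -0.54; the T cell lists move to the right when knockout array 1 is left out, and those of CD4 identity, Th1 and Th2 cross 0.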

How the data were processed

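RNA of CD4+ spleen cells was measured on 10 Affymetrix arrays of 45101 probe sets. The deposited values are linear intensities, for which the submitters' processing notes name MAS5, and each array's mean after trimming 2% at each end was 500, so that scaling had been done before deposit. Software settings are not given in the sources used. Of the probe sets 34958 had 1 gene symbol, 932 several and 9211 none; 34754 matched RefSeq's gene table. Each gene was represented by its brightest specific probe set, probe sets that bind several transcripts (s and x types) being used only where no other existed. Genes above the array median in at least 2 of 10 arrays were kept (11759 of 18193).

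Log2(intensity + 16) was fitted in R 4.3.3 with limma 3.58.1 (4 group means from all 10 arrays, an intensity trend), with Benjamini-Hochberg adjustment over all genes tested and a threshold of 0.05. The labels say that the mice differ, but not how the samples were collected, so p-values measure the spread between these samples. Named are the genes past the threshold and the 10 largest differences of each direction short of it. The latter are among genes that are not clone names, with at least a 2-fold difference, an unadjusted p under 0.05 and groups of arrays that do not overlap. Markers, IL-1 family members and neighbours on the chromosome are named as well. Of the 4 members of smallest p in each list some are named and others are not, and no fixed rule set which. Genes outside these groups, such as Thy1, Lcn2 and those added at the end, were chosen after their values were seen. The gene lists and members were chosen with earlier results of these data known. Alternatives were other scalings, added values, filters, probe set rules, weights and a replicate block, and leaving out each array.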

Additional observations from a re-analysis of the deposited data

Results flagged for a closer look

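Plac8 stood out because its knockout difference was not the same at both ages, by the test of that difference. At 1 month the gene read 8538 and 9247 against 4595, 3518 and 4244 in wild type, higher in both knockout arrays by 1.11 ± 0.17 on the log2 scale. At 4 months the difference was -0.76 and did not pass (adjusted p = 0.208). The interaction of genotype and age was 1.87 in limma's fit of all 10 arrays (adjusted p = 0.047), and of the 11759 genes it was the 1 that passed. The same test gave 0 genes under several alternatives, listed with the settings below.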

How the results depend on the processing

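The 9 calls at 1 month became 3 with array weights and 16 when every probe set was tested, and ran from 1 to 13 when single arrays were left out; Arl2bp passed in all of them. With a replicate block 7 genes were called at 1 month, each of them among the 9, and the interaction gave 0. Same-numbered arrays had correlations of deviations of 0.0367 and 0.269 in 2 pairs, too few to establish a pairing. Median scaling moved the median of all genes to 0.15 and called 12. The interaction of genotype and age, 1 gene in limma's main setting, gave 0 with median scaling, pseudocount 1, no intensity trend, array weights, the mean of the probe sets, every probe set and the block, and 28 when both first arrays of 1 month were left out; it ran from 0 to 8 over single arrays left out. Where it gave 0, 781 to 1945 genes had an unadjusted p under 0.05 in those 12 fits, against 1159 in the main setting. Lyz1 was -0.16 and Tox2 0.42 without the filter, through another probe set, and Nfkb2 ran from -2.65 without knockout array 2 to 0.076 without knockout array 1. Of the values of named genes 2630 kept direction and side of the threshold, 69 lost the call, 23 gained it and 3 reversed; 747 list medians moved by less than the spread of the arrays and 57 by more. Signals under the array medians, and 2 against 3 arrays, limit what these data resolve.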

Other observations

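Several genes outside the lists lay apart between the genotypes, and were chosen here after their values were seen; none passed limma's test. Cd34, a surface protein of blood progenitors, read 384 and 286 in the knockout and 127, 109 and 135 in wild type (1.32 ± 0.32, adjusted p = 0.316). Dntt, the terminal transferase of early lymphocytes, read 551 and 753 against 385, 279.7 and 237 (1.09 ± 0.36, adjusted p = 0.502). The transcription factor gene Meis1 of progenitors read 83.7 and 131 against 49.9, 39.0 and 33.2 (1.11 ± 0.45, adjusted p = 0.56). For these 3 genes every wild-type array lay below both knockout arrays, as for 10.7% of all genes. For Dntt, wild-type array 1 was 0.55 above the other wild-type arrays on the log2 scale and 0.50 below knockout array 1.

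Ccl9, a chemokine of myeloid cells, read 651 and 786 against 322, 139 and 230.5 (1.64 ± 0.31, adjusted p = 0.135). Ifi202b, an interferon-inducible gene, read 310 and 415 against 119, 109.8 and 116 (1.52 ± 0.29, adjusted p = 0.135), higher in both knockout arrays while the Oas1 genes were lower. Mgst1, a membrane glutathione transferase, read 1009.7 and 1489 against 538, 237 and 282 (1.84 ± 0.38, adjusted p = 0.202). On the lower side, Clcf1, a cytokine of the IL-6 family, read 261 and 235 against 521, 584 and 496 (-1.06 ± 0.19, adjusted p = 0.0956). Eif4h, a translation initiation factor, read 174 and 194 against 442, 484 and 398 (-1.19 ± 0.22, adjusted p = 0.11). In each of these 5 genes the arrays of a genotype lay on 1 side of all arrays of the other. Over all genes, the groups lay apart in this way for 10.7% in the higher and 10% in the lower direction.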
